A study of Homo sapiens with 6 samples.

Results

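Cadherins, claudins, desmosome proteins, connexins and protocadherins are the membrane and plaque proteins through which neighbouring cells hold on to each other. All genes of the deposited table whose symbol names a cadherin, a protocadherin, a desmocollin, a desmoglein, desmoplakin, plakoglobin, a plakophilin, a claudin, a zonula occludens protein (TJP), occludin, a connexin, or an alpha or delta catenin were taken as members. The rule reads the symbol and no expression value. This gave 122 of the 16569 genes listed, 121 of them protein-coding genes with a single identifier. CTNNA1, CTNND1, TJP1, PKP4 and the desmocollin genes were not analysed here.

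The RNA came from LX-2, an immortalised human hepatic stellate cell line labelled wild type, so every library is from 1 line grown in culture. The cells were grown with 2% serum and held for 18 h without serum. They were then left for 24 h with 100 ng/mL of IGFBP-7, a protein that cells secrete and that belongs to the family binding insulin-like growth factors, or with phosphate-buffered saline (PBS). There were 3 libraries in each group, and no label says that they came from separate cultures, so the p-values speak of the spread among these libraries alone, and that spread may be technical. The comparison shows which junction transcripts differed after IGFBP-7.

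Classical cadherins bind the same cadherin on the next cell and are anchored to actin by catenins. Desmosomes do the same for intermediate filaments with desmogleins, plakoglobin, plakophilins and desmoplakin. Claudins and occludin close the space between cells at tight junctions, connexins form the channels of gap junctions, and clustered protocadherins are best known as surface labels of neurons. Hepatic stellate cells are mesenchymal, and are known for N-cadherin (CDH2) and OB-cadherin (CDH11) in place of the E-cadherin (CDH1) of epithelia.

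Each level is a mean ± SD of the authors' normalized counts (n = 3 libraries in every group). They are not divided by gene length, so they compare 1 gene between libraries and not 1 gene with another. A log2 change is IGFBP-7 minus PBS on log2(normalized count + 1), with the standard error (SE) and Benjamini-Hochberg adjusted p of limma-trend over all genes tested, and it is too small for genes with low counts. A gene was called higher or lower when its adjusted p was under 0.05. In RNA of whole cultures, fewer cells carrying a transcript and less of it in each cell cannot be told apart. A fragment here means the smallest value above 0 in a library, and whether that is 1 read pair or 1 read of a pair is not given. By that unit the libraries held 20299690 to 27739970 fragments on the genes of the table. The floor used for a gene listed at 0 was 3 fragments, worth 2.54 to 3.20 normalized counts. Log2 values correlated across genes, a description only, at 0.987 to 0.989 for libraries of 1 group and at 0.952 to 0.954 for libraries of different groups.

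Of the 122 members, 73 had a mean of at least 10 normalized counts and were tested, and 49 did not. As deposited, 44 of the 73 were called, 12 higher and 32 lower, which is 60.3% against 60.6% of all 11872 genes tested. The share called higher was 16.4% against 31.3% of all genes, and the share called lower was 43.8% against 29.2%. Of the 32 lower calls, 20 belong to the gamma protocadherins, whose values have a large common part, as described further on. Outside that cluster 53 members were tested and 24 were called, 12 higher and 12 lower, or 45.3%. Their median log2 change was 0.06, and that of all tested genes was 0.02. Of the 73, 6 were at least 2-fold higher, where the background is 5.05%, and 7 at least 2-fold lower, where it is 6.33%. The 2 groups did not overlap in 50 of the 73 members, or 68.5%, where the background is 63.5%. With the gamma cluster left out, 30 of 53 did not overlap, or 56.6%. Scaling each library to its total in place of the authors' normalization moved the median change of all genes by -0.14 and turned 3721 higher and 3471 lower genes into 2435 and 4176. The members then numbered 11 higher and 35 lower.

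**Figure D1:**
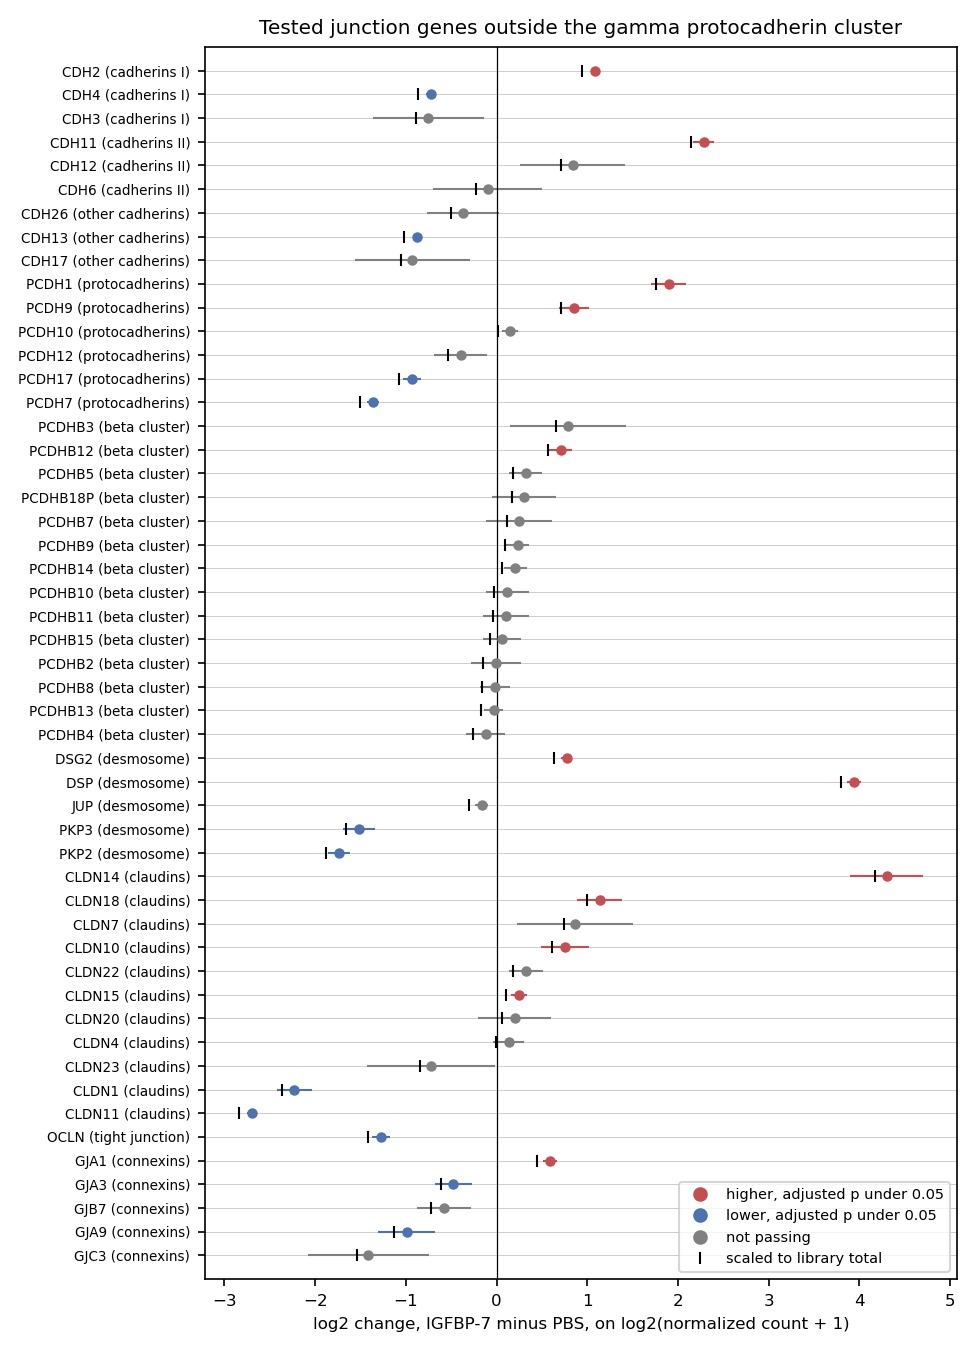
Log2 change with IGFBP-7 of 51 of the 53 tested members outside the gamma protocadherin cluster, ordered by role, as points with bars of 1 SE, and black ticks giving the change after scaling to the library total. DSP at 3.94 and CLDN14 at 4.30 lie farthest to the right, CLDN11 at -2.70 and CLDN1 at -2.23 farthest to the left.

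The classical cadherins changed in opposite directions. CDH2 encodes N-cadherin, the principal adhesion cadherin of mesenchymal cells. Its value was 5962, 6019.8 and 6071 in the PBS libraries and 12755, 12743 and 12779 with IGFBP-7. The 3 treated libraries lay close together and far above all controls. The level rose from 6018 ± 54.4 to 12759 ± 18.6, a log2 change of 1.08 ± 0.05 (adjusted p = 1.99e-26, limma). CDH4 encodes R-cadherin, a close relative of N-cadherin first described in retina. It was listed at 6775, 6473 and 6347 in PBS and at 4199, 3679.6 and 3999 with IGFBP-7. Here all treated libraries lay below all controls, and the log2 change was -0.72 ± 0.05 (adjusted p = 1.23e-16, limma).

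CDH11, or OB-cadherin, is a type II cadherin of mesenchymal and fibroblastic cells that is known from fibrotic tissue. Its values were 198, 197 and 246 in PBS and 1135, 929 and 1057 with IGFBP-7. The lowest treated library was well above the highest control, and the level rose from 214 ± 27.8 to 1040 ± 104, a log2 change of 2.28 ± 0.11 (adjusted p = 7.69e-24, limma). CDH13, or T-cadherin, lacks the cytoplasmic tail through which other cadherins bind catenins and is held in the membrane by a lipid anchor. It was at 10819.6, 10449.8 and 11295 in PBS and at 6033, 5966 and 5739 with IGFBP-7. The groups were again apart, with a log2 change of -0.88 ± 0.05 (adjusted p = 8.30e-22, limma). Within each library the CDH2 value was 0.538 to 0.576 times that of CDH13 in PBS and 2.11 to 2.23 times with IGFBP-7, a pair chosen after the values were seen.

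The other cadherins were low and none of them passed the test. CDH12, a type II cadherin of brain, had 10.3, 5.89 and 13.9 in PBS and 16.4, 8.47 and 39.3 with IGFBP-7. The groups overlapped and 1 treated library carried most of the difference (adjusted p = 0.213, limma). CDH26, a cadherin described in inflamed epithelium, had 38.1, 23.6 and 31.0 in PBS and 16.4, 25.4 and 30.0 with IGFBP-7, which also overlapped (adjusted p = 0.434, limma). CDH3 (P-cadherin), CDH6 (K-cadherin) and CDH17 (LI-cadherin) had means of 12.6 to 14.7 over the 6 libraries, and their adjusted p ran from 0.204 to 0.901 in limma. Among the 10 cadherins under the filter, CDH1 (E-cadherin) had 2 fragments in all and was listed at 0 in 5 of the 6 libraries. CDH5 encodes VE-cadherin of endothelium and was listed at 6.18, 5.89 and 17.1 in PBS and at 0 in all 3 treated libraries. It rests on 28 fragments and was not tested. Without the filter its adjusted p was 2.60e-04 and that of CDH20, on 37 fragments, 0.00738 (limma). The alpha and delta catenins of the table, CTNNA2, CTNNA3 and CTNND2, which anchor cadherins mainly in brain and heart, had 2 to 10 fragments each over the 6 libraries.

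**Figure D2:**
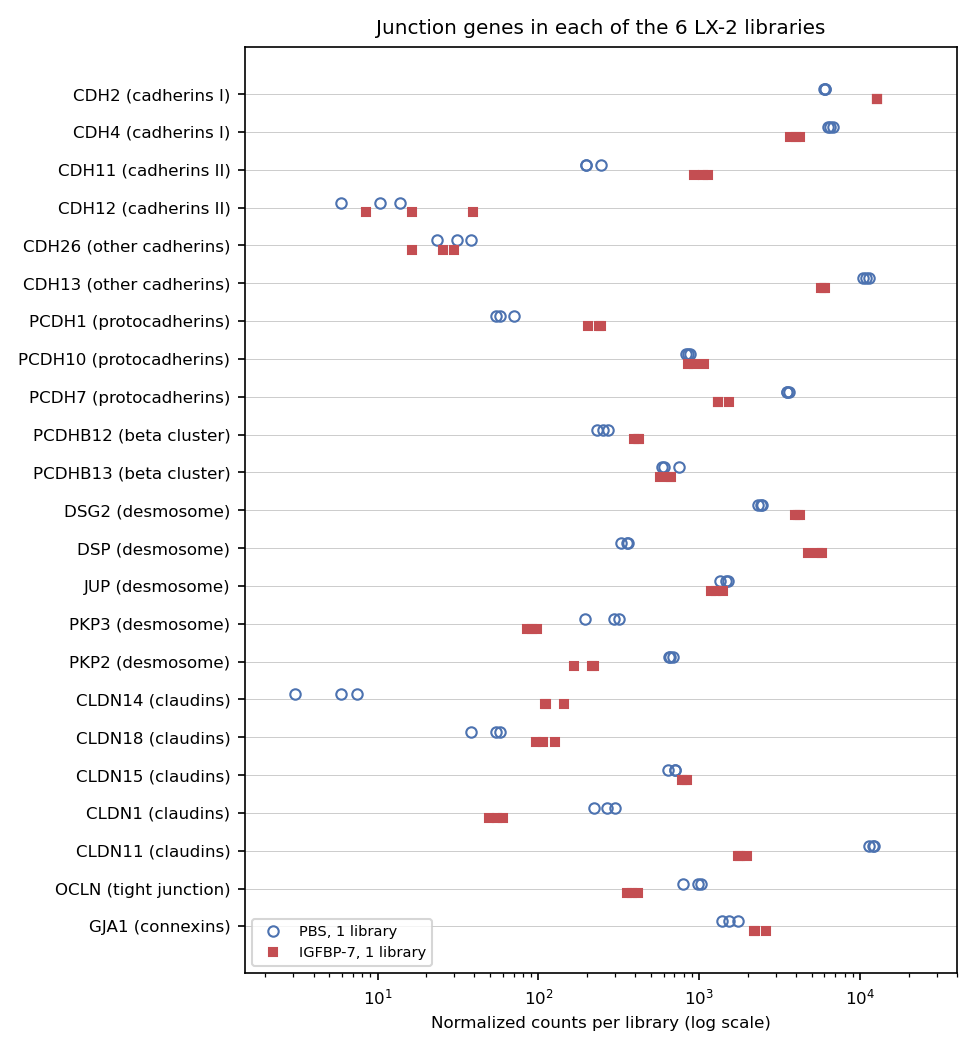
Normalized counts on a log scale of named members in each library, PBS as open circles and IGFBP-7 as filled squares, 3 of each per gene. The groups are separate for CDH2, CDH11, DSP and CLDN11 and overlap for CDH12, PCDHB13 and JUP.

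Desmosome genes were led by desmoplakin. DSP encodes the plaque protein that ties desmosomes to intermediate filaments. It had 325, 362 and 357 in PBS and 5827, 4769.5 and 5497 with IGFBP-7. Every treated library was more than 10 times every control. The level rose from 348 ± 19.9 to 5364 ± 541, or 15.3-fold on the fitted scale, with a log2 change of 3.94 ± 0.08 (adjusted p = 4.23e-41, limma). DSG2, the desmoglein of simple epithelia and heart, had 2316, 2445 and 2412 in PBS and 4109, 4214 and 3919 with IGFBP-7. It was higher in all 3 treated libraries than in any control, with a log2 change of 0.77 ± 0.06 (adjusted p = 1.70e-16, limma). DSG3 and DSG4, the desmogleins of skin and hair, had 7 and 2 fragments in all.

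The plakophilins, which link desmogleins to desmoplakin in the plaque, went the other way. PKP2, the plakophilin of heart and simple epithelia, had 647, 687 and 660.1 in PBS and 215, 166 and 220.1 with IGFBP-7. All treated libraries were far below all controls, with a log2 change of -1.74 ± 0.12 (adjusted p = 1.37e-17, limma). PKP3, known mainly from epithelia, had 317, 194 and 294 in PBS and 98.1, 84.7 and 90.9 with IGFBP-7. The controls spread more than the treated libraries but did not reach them, and the log2 change was -1.52 ± 0.18 (adjusted p = 3.82e-10, limma). The ratio of DSP to PKP2 values within a library was 0.503 to 0.541 in PBS and 25.0 to 28.7 with IGFBP-7. This pair too was chosen after the values were seen.

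JUP encodes plakoglobin, a relative of beta-catenin found in both desmosomes and adherens junctions. It had 1347, 1506 and 1469 in PBS and 1399.5, 1266 and 1189 with IGFBP-7. The highest treated library lay inside the control range. The log2 change of -0.17 ± 0.08 missed the threshold (adjusted p = 0.0552, limma). It passed as lower in edgeR (adjusted p = 0.029) and DESeq2 (adjusted p = 0.0309) on recovered fragments, and after scaling to the library total, where the change was -0.31 (adjusted p = 4.42e-04, limma). The same held in limma with quantile normalization (adjusted p = 0.0163), a filter at a mean of 100 (adjusted p = 0.0442), without PBS replicate 1 (adjusted p = 0.0269) and without IGFBP-7 replicate 1 (adjusted p = 0.0186).

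Among partners of desmosomes and of hemidesmosomes, the contacts of a cell with the matrix, 4 of 10 tested genes rose and 5 fell. These were 40% and 50%, against 31.3% and 29.2% of all tested genes. Periplakin (PPL), a relative of desmoplakin, fell from 177 ± 28.0 to 31.9 ± 11.3, a log2 change of -2.48, and the integrin ITGB4 of hemidesmosomes fell from 861 ± 54.3 to 189.7 ± 15.5, a log2 change of -2.18. The keratins KRT8 and KRT18, whose filaments attach to desmosomes in simple epithelia, rose by 0.66 and 0.43 on the log2 scale. The table listed 13 epithelial and cholangiocyte markers, of which 7 had means under 10, with CDH1, EPCAM, KRT19 and ESRP1 at or near 0. The summed level of the 13 was 1486 to 1562 in PBS and 1935 to 1999 with IGFBP-7. Of the 6 tested, SOX9, a transcription factor of bile ducts, rose from 852 ± 44.5 to 1193 ± 65.9, the largest part of the sum in both groups. ELF3 fell and 4, KRT7, CLDN4, CLDN7 and SPINT1, were not called. KRT7 had 400 ± 73.4 in PBS and 470 ± 17.5 with IGFBP-7. The part of this shift in the rise of DSP and DSG2 was not tested.

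The upstream sequences of DSP and DSG2 are shown because these desmosome genes rose together, with those of OCLN and CLDN11 as tight junction genes that fell. Each is the 250 bases before the gene's start, 5′ to 3′ on the gene's strand, from RefSeq on GRCh38.p14. Capitals mark CAGGTG, on either strand, the core of the E-box that SNAI and ZEB repressors are known to bind.
DSP, chr6:7541421-7541670, plus strand: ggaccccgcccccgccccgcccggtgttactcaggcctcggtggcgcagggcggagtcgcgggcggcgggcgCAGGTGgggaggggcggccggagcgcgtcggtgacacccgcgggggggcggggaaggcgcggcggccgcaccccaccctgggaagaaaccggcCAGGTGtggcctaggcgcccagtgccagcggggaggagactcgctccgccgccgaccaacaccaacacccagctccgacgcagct
DSG2, chr18:31497927-31498176, plus strand: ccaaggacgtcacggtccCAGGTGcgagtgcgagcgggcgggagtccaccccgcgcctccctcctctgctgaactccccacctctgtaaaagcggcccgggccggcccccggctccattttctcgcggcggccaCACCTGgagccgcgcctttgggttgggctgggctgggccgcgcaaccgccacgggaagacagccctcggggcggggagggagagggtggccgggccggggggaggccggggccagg
OCLN, chr5:69492297-69492546, plus strand: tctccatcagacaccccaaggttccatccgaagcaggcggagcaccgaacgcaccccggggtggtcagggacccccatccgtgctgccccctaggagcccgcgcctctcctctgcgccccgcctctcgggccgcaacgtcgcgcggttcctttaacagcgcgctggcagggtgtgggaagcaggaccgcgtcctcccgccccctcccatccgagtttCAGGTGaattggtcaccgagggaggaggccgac
CLDN11, chr3:170418618-170418867, plus strand: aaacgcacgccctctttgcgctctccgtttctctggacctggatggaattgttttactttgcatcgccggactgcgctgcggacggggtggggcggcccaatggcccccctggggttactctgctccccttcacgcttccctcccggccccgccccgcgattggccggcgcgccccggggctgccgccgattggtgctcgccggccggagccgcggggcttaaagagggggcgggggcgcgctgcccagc

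CAGGTG stood in DSP and DSG2, which rose, and in OCLN, which fell, and these letters were not in the CLDN11 window. Of the 91 members with a RefSeq window 11 held the motif, or 12.1%, and of all 27305 windows 17.5% did. Among the 56 tested members with a window the count was 10, or 17.9%. A match describes the letters only. The transcripts of 17 repressors and activators of junction genes were tested, and 7 rose and 6 fell. These were 41.2% and 35.3%, against 31.3% and 29.2% of all tested genes. SNAI1 (Snail) rose from 156 ± 13.5 to 2384 ± 117, a log2 change of 3.93 ± 0.10, and SNAI2 (Slug) from 428 ± 30.6 to 1467 ± 90.1, a log2 change of 1.78 ± 0.09. The 2 ZEB genes went opposite ways, as ZEB1 rose by 0.30 and ZEB2 fell by 0.81 on the log2 scale.

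The 2 largest falls among the tested members were those of claudins. CLDN11 encodes a claudin known from the myelin of oligodendrocytes and from Sertoli cells. It was at 12163, 11422 and 12030.0 in PBS and at 1969, 1788 and 1737 with IGFBP-7. All treated libraries were far below all controls. The level fell from 11872 ± 395 to 1831 ± 122, a log2 change of -2.70 ± 0.06 (adjusted p = 2.43e-40, limma). CLDN1, the claudin of the epidermal barrier and of bile ducts, had 298, 222 and 266 in PBS and 55.2, 49.1 and 59.9 with IGFBP-7. Its groups were likewise far apart, with a log2 change of -2.23 ± 0.20 (adjusted p = 2.58e-14, limma).

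Occludin (OCLN), a membrane protein of the tight junction strand, had 792, 981 and 1032 in PBS and 382, 357 and 413 with IGFBP-7. It was lower in every treated library, with a log2 change of -1.27 ± 0.10 (adjusted p = 1.86e-15, limma). TJP3, which encodes ZO-3, had 29 fragments in all.

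Other claudins rose. CLDN14, a claudin of the inner ear and kidney, was listed at 3.09, 5.89 and 7.48 in PBS, which are 3, 6 and 7 fragments. With IGFBP-7 it had 145, 112 and 109.5. It was at a few fragments in every control and above 100 normalized counts in every treated library. The log2 change was 4.30 ± 0.40 (adjusted p = 2.10e-13, limma). In GENCODE 29 a share of 4.63% of its exon bases lies opposite the antisense gene CLDN14-AS1, and CLDN14-AS1 was itself higher, at 124 ± 8.74 against 27.2 ± 12.7 (log2 change 2.23 ± 0.29). The sources used here do not give the strand setting, so reads over those bases cannot be told apart. CLDN18, known from stomach and lung, had 38.1, 57.9 and 54.5 in PBS and 97.1, 126 and 107.5 with IGFBP-7. All treated libraries were above all controls, and the log2 change was 1.13 ± 0.25 (adjusted p = 8.69e-05, limma).

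CLDN15, which forms sodium pores in the intestine, had 704, 704 and 642 in PBS and 812, 842 and 779 with IGFBP-7. The groups did not overlap, and the log2 change was 0.25 ± 0.09 (adjusted p = 0.0158, limma). That call was lost after scaling to the library total (adjusted p = 0.326, limma), without PBS replicate 3 (adjusted p = 0.0871, limma) and without IGFBP-7 replicate 2 (adjusted p = 0.0653, limma). CLDN10, a claudin of ion pores in kidney and glands, rose from 51.9 ± 17.8 to 85.0 ± 1.91, a log2 change of 0.75 ± 0.26 (adjusted p = 0.0123, limma), and was not called without PBS replicate 1 (adjusted p = 0.0866, limma). In GENCODE 29, 46.1% of its exon bases lie opposite DZIP1. In all, 4 of the 11 tested claudins rose, 2 fell and 5 were not called. The claudins of simple epithelia CLDN4 and CLDN7 were among the 5, with values of 144 ± 3.29 and 158 ± 10.6 for CLDN4 (adjusted p = 0.525, limma). The 9 claudins under the filter, CLDN3 and the endothelial CLDN5 among them, did not exceed 15.45 in any library.

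Of 22 tested partners of tight junctions 5 rose and 14 fell (median log2 change -0.27). The polarity protein gene PARD6A fell from 199 ± 21.9 to 55.8 ± 15.7, a log2 change of -1.85, and ILDR2, a relative of the tricellular junction proteins, from 173 ± 28.4 to 69.9 ± 21.1, a log2 change of -1.34. JAM2, a junctional adhesion molecule, rose by 1.15 on the log2 scale. Of 18 tested partners of adherens junctions 3 rose and 14 fell (median log2 change -0.35). PLEKHA7, which ties microtubules to the cadherin complex, fell from 3766 ± 55.2 to 594 ± 33.5, a log2 change of -2.66. AJUBA, a LIM protein that binds alpha-catenin, fell from 8321 ± 82.9 to 2605 ± 165, a log2 change of -1.68. The shares of all tested genes called lower and higher, 29.2% and 31.3%, are the background for these counts and for those of each role.

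Among the 6 tested gap junction genes 1 rose, 2 fell and 3 were not called. GJA1 encodes connexin 43, the connexin of fibroblasts and stellate cells. It had 1383, 1538 and 1744 in PBS and 2230.5, 2587 and 2193 with IGFBP-7. The lowest treated library was above the highest control, and the log2 change was 0.59 ± 0.07 (adjusted p = 1.58e-09, limma). GJA9 fell from 69.9 ± 24.1 to 34.3 ± 10.5, a log2 change of -0.99 ± 0.31 (adjusted p = 0.00549, limma), and GJA3, connexin 46 of the lens, from 132 ± 15.96 to 95.1 ± 15.1, a log2 change of -0.48 ± 0.20 (adjusted p = 0.0381, limma). Neither fall was called when PBS replicate 1 was left out, where the adjusted p was 0.0784 for GJA9 and 0.114 for GJA3 (limma). For GJA3 the same held without PBS replicate 3, without IGFBP-7 replicate 2 and without IGFBP-7 replicate 3. In GENCODE 29, 92.3% of the exon bases of GJA9 also belong to the readthrough gene GJA9-MYCBP. GJB7 and GJC3 were not called, with adjusted p of 0.0913 and 0.0614 in limma. GJC3 passed as lower in edgeR (adjusted p = 0.0191) and DESeq2 (adjusted p = 0.0349) with 4 to 22 fragments in each library. The 5 connexins under the filter included GJB1 and GJB2, connexins 32 and 26 of hepatocytes, with 3 and 16 fragments. Outside the connexins named by the rule, the channel gene PANX1 rose by 0.66 on the log2 scale and GJD3 fell by 0.89.

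Protocadherins outside the gene clusters, which carry cadherin repeats but do not bind beta-catenin, also moved both ways. PCDH1, known from airway epithelium, had 54.6, 70.7 and 57.7 in PBS and 244, 238 and 205 with IGFBP-7. Treated libraries were all more than 2 times any control, and the log2 change was 1.90 ± 0.20 (adjusted p = 5.39e-12, limma). PCDH7 had 3606, 3503 and 3527 in PBS and 1535, 1313 and 1299 with IGFBP-7. It was lower in all treated libraries, with a log2 change of -1.36 ± 0.07 (adjusted p = 6.03e-24, limma). PCDH9 rose from 122 ± 14.3 to 221 ± 17.7 and PCDH17 fell from 865 ± 93.4 to 451 ± 25.4, with log2 changes of 0.85 ± 0.17 and -0.93 ± 0.10. PCDH10 had 824, 874 and 854.5 in PBS and 1064, 856 and 927 with IGFBP-7, and its groups overlapped (adjusted p = 0.128, limma). PCDH12 was not called either (adjusted p = 0.241, limma).

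The clustered protocadherins lie in 3 neighbouring gene groups, alpha, beta and gamma, on chromosome 5. In the beta group each gene is a single exon of its own. Of 14 tested beta genes 1 was called, or 7.14%, against 60.6% of all tested genes. That background is not matched for level. The beta means ran from 11.3 (PCDHB3, SE 0.64) to 639 normalized counts (PCDHB13, SE 0.10). A small change passes less readily at the low end, so a gene not called is not shown to be unchanged. PCDHB12 had 269.8, 252 and 232 in PBS and 421, 414 and 394 with IGFBP-7. These groups were separate, and the log2 change was 0.70 ± 0.12 (adjusted p = 3.30e-06, limma). PCDHB13 had 607, 586 and 749 in PBS and 663, 656 and 571 with IGFBP-7, which overlapped (adjusted p = 0.799, limma). The beta group summed to 2316 ± 157 in PBS and 2619 ± 177 with IGFBP-7. Beta genes resemble each other, and a median of 13.2% of the 50-base words of their GENCODE 29 transcripts recur in another member, at most 44.5% for PCDHB8. How reads that match several genes were counted is likewise not stated there.

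In the gamma group each gene has its own first exon, spliced to constant exons that all gamma genes share. GENCODE 29 (GRCh38) gives 3 of them. Constant exons 1 and 2, of 59 and 89 bases, belong to all 20 gamma genes of the table and are printed as the stretch that all of these genes have in common. Constant exon 3, of 2033 bases, belongs to 19 of the 20 there and is not printed.
Gamma constant exon 1, chr5:141494807-141494865, plus strand: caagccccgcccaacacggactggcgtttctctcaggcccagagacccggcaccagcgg
Gamma constant exon 2, chr5:141505393-141505481, plus strand: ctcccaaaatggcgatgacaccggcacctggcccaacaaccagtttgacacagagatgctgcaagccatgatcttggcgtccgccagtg

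A fragment that lies in these exons does not tell which gamma gene it came from. Many of the 20 genes had nearly the same deposited value in a library. The lowest gamma gene had 4952, 4956 and 4914 fragments in the PBS libraries and 4316, 5153 and 3967 with IGFBP-7, and 9 to 13 of the 20 genes lay within 2% of it. PCDHGC3 stood highest, with 8043 fragments in PBS replicate 1, where the lowest gene had 4952. Fragments were not counted by exon here, so the part of the constant exons in these values was not tested. As deposited, all 20 were called lower, with log2 changes from -0.28 to -0.22 and no overlap between groups. These calls cannot be read as 20 separate measurements, as most of each value is the number that the lowest gene also has.

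**Figure D3:**
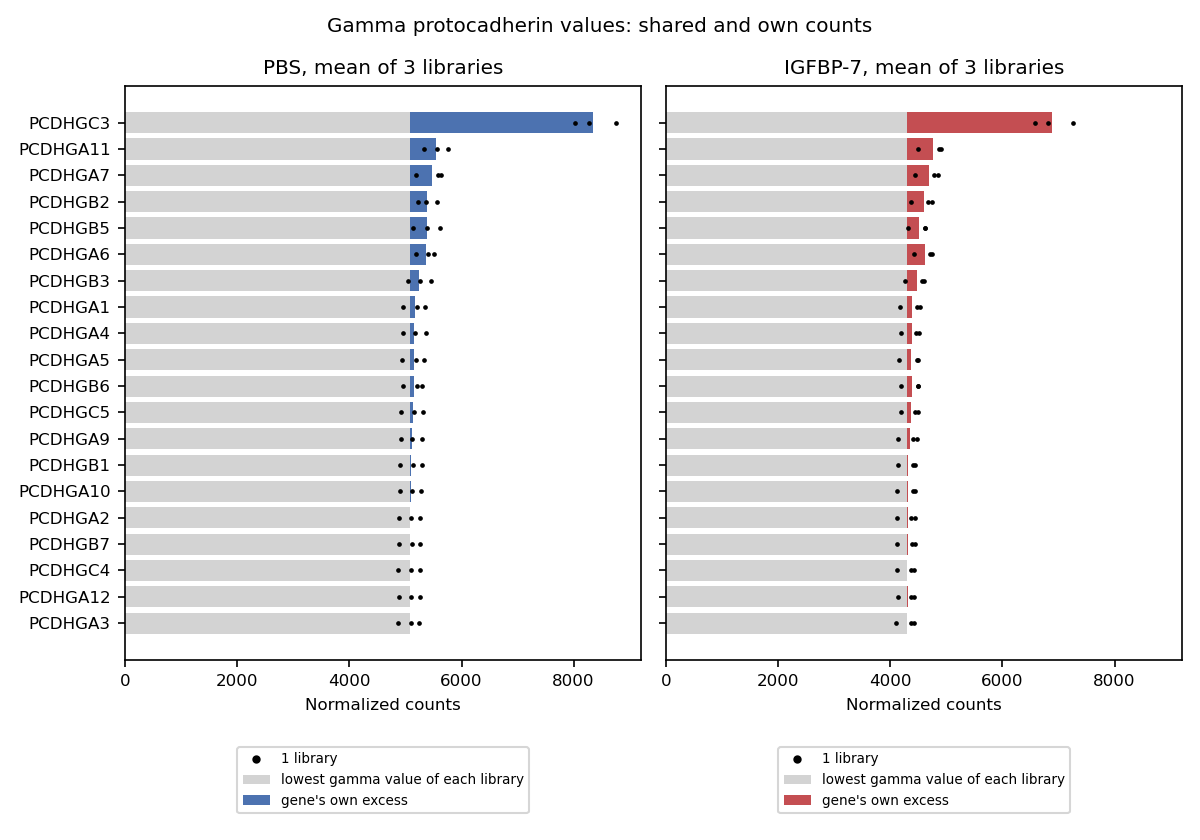
Normalized counts of the 20 gamma protocadherins, with PBS on the left and IGFBP-7 on the right, as mean bars split into the lowest gamma value of each library (grey) and the rest of the gene's value (coloured), and points for the 3 libraries. The grey part averages 5072 in PBS and 4292 with IGFBP-7, and only PCDHGC3 stands far above it.

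The cluster was therefore refitted with the lowest gamma value of each library as 1 shared row and, for each gene, its excess over that row, an alternative added after the data were seen. The shared row had 5099, 4867 and 5249 in PBS and 4412, 4364 and 4099 with IGFBP-7. Its groups were separate, and it fell from 5072 ± 192 to 4292 ± 169, a log2 change of -0.24 ± 0.05 (adjusted p = 1.38e-04, limma). Of the 20 excess values 18 passed the filter, and of these 1 rose, 2 fell and 15 were not called. The share called was 16.7%, against 60.6% of all genes tested as deposited, a background not matched for level. The SE of the excess changes ran from 0.06 (PCDHGC3) to 0.79 (PCDHGA12), so a small change passes less readily in the low ones. PCDHGC3, one of the C-type genes at the end of the cluster, had an excess of 3183, 3150.3 and 3517 in PBS and 2849, 2452 and 2475 with IGFBP-7. It was lower in all treated libraries, with a log2 change of -0.34 ± 0.06 (adjusted p = 7.37e-06, limma). The excess of PCDHGB5 fell from 307 ± 45.8 to 224 ± 28.1, a log2 change of -0.45 ± 0.14 (adjusted p = 0.00508, limma). That of PCDHGC5 rose from 55.3 ± 12.2 to 82.0 ± 3.29, a log2 change of 0.58 ± 0.25 (adjusted p = 0.0454, limma), and was not called when PCDHGA3 was taken as the base in every library (adjusted p = 0.0760, limma). PCDHGA11, the next by deposited value, had 5549 ± 217 in PBS and 4753 ± 228 with IGFBP-7, but an excess of 477 ± 26.7 and 461 ± 62.7 (adjusted p = 0.684, limma). PCDHGC3 made up 56.3% to 57.4% of the summed excess in PBS and 47.7% to 52.2% with IGFBP-7.

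**Figure D4:**
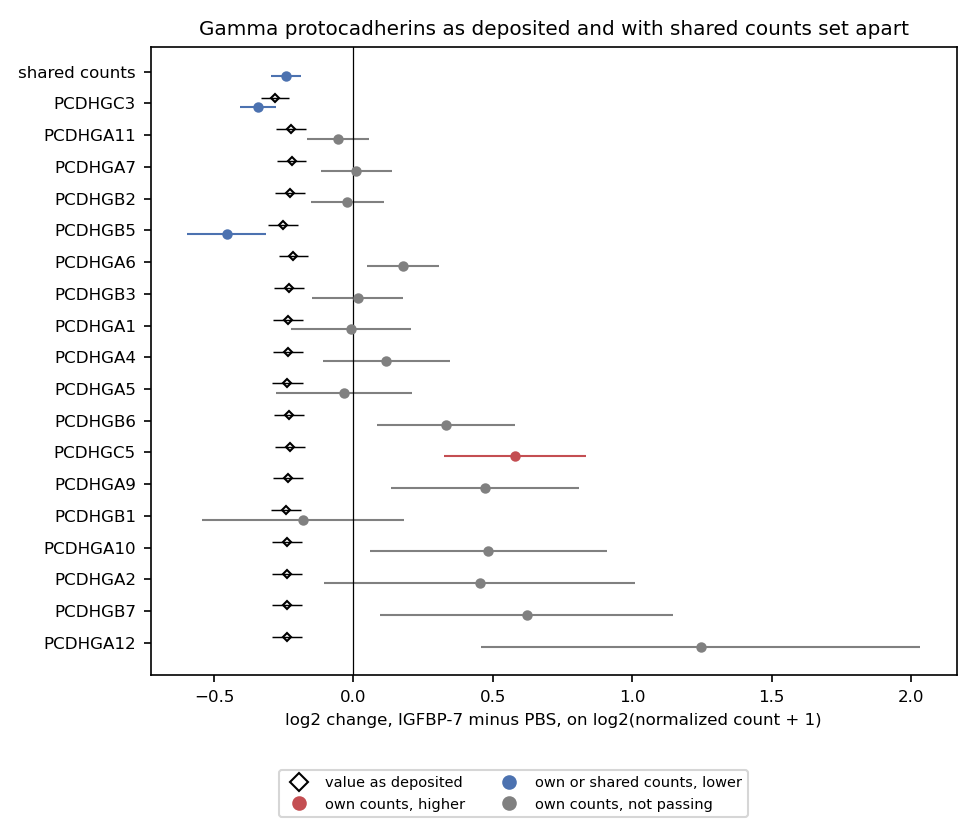
Log2 change with IGFBP-7 of the gamma protocadherins with bars of 1 SE, as deposited (open diamonds) and for the excess over the shared counts (filled circles), with the shared row on top. The open diamonds lie between -0.28 and -0.22, while the excess of 18 genes runs from -0.45 to 1.25 and was called for 3. The 1.25 is that of PCDHGA12, whose excess in PBS replicate 1 was 0 because it was the lowest gene there.

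With the gamma fragments counted once in this way, 72 rows stood for the members, of which 13 were called higher and 15 lower, or 38.9%. Of all genes tested as deposited 60.6% were called. The alpha group, built like the gamma group with constant exons of its own, was near the floor. Its 15 genes summed to 6 to 20 fragments in the PBS libraries and 8 to 51 with IGFBP-7, and none was tested. In IGFBP-7 replicate 1 all 15 had at least 2 fragments and 7 had exactly 2. Whether those 2 lie in the shared constant exons and were counted for each gene was not tested, and they may be the reads of 1 pair. Of the regulators of clustered protocadherins in the table, PDS5B, a cohesin partner, and CTCF, which folds the cluster in neurons, rose by 0.39 and 0.23 on the log2 scale, and the other tested gene was not called.

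Larger relatives of the cadherins that the symbol rule left out were tested in 13 genes, and 2 rose while 7 fell (median log2 change -0.52). These were 15.4% and 53.85%, against 31.3% and 29.2% of all tested genes. FAT4, an atypical cadherin of planar polarity and Hippo signalling, fell from 1582 ± 106 to 646.5 ± 80.1, a log2 change of -1.30, and CDHR3, a cadherin of ciliated airway cells, fell from 290.2 ± 25.7 to 136 ± 12.7, a log2 change of -1.08. Among 11 tested genes of cadherin shedding and turnover 4 rose and 5 fell, or 36.4% and 45.45%, with the same background. FURIN, the protease that cuts cadherin precursors, rose from 8666.5 ± 154 to 17937 ± 332, a log2 change of 1.05, and MMP14, a membrane protease of the cell surface, rose by 0.74.

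Checked against the cell type label, the libraries carried stellate and mesenchymal transcripts. Of 14 tested stellate markers 7 rose, 3 fell, which were LUM, HAND2 and THY1, and 4 were not called, with a median log2 change of 0.06. The background for this and each marker count below is 31.3% of all tested genes higher and 29.2% lower. DES was at 0 in 5 of the 6 libraries. The summed level of the 15 listed was 95540 to 98330 in PBS and 260600 to 287200 with IGFBP-7, of which COL1A1 alone made up 49614 ± 1794 and 198930 ± 8843. Endothelial markers summed to 3161 to 3377 and 3055 to 3155, with 3 of 8 tested higher and 1 lower and CDH5, EMCN and LYVE1 at or near 0 with IGFBP-7. Most of that sum was TIE1, the 1 that fell, from 2339.5 ± 96.1 to 1908 ± 44.3. The 3 that rose were ROBO4, from 458 ± 48.4 to 624 ± 21.4, TEK, from 138 ± 34.55 to 224 ± 35.1, and PECAM1, from 61.5 ± 3.80 to 113 ± 10.2. Hepatocyte markers summed to 379 to 447 and 397 to 482, with 1 of 3 tested higher and ALB and APOB at or near 0. Most of the PBS sum was SERPINA1, at 252 ± 26.5 in PBS and 227 ± 24.2 with IGFBP-7, which was not called. The gene that rose was ASGR1, from 118 ± 14.7 to 173 ± 34.1. Leukocyte markers summed to 3389 to 3472 and 1773 to 2078, with PTPRC near 0. Of the 4 tested, CD68, CD14 and ITGAM fell, CD68 from 2863 ± 53.3 to 1466 ± 135, and CSF1R rose from 56.5 ± 8.05 to 293 ± 44.3. The part of these shifts in the changes of the junction genes was not tested.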

How the data were processed

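RNA sequencing of poly(A) RNA from 6 LX-2 libraries, 3 per group, was analysed from 1 deposited table. Its values are a signal on a linear scale, counts normalized by the authors, per the file headers. The submitters' processing notes list DESeq2, STAR, featureCounts and Subread with neither version nor role. Genome build, annotation, strand setting: not given in the sources used here. Groups were taken from the labels. In rows with a single identifier 100% of values were whole multiples, within 0.01, of the smallest value above 0 of their library. That value was taken as 1 fragment, but whole multiples do not tell a read pair from 1 read of a pair. Low values were often even, such as 6, 6 and 16 for CDH5 in PBS and 6, 4 and 4 for CDH9 with IGFBP-7, though odd ones occurred. If the unit is 1 read, the fragment numbers given here, also those used in edgeR and DESeq2, are too high. Per-sample columns left unused numbered 0.

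The design allowed for raw or normalized counts, and as the values are normalized, limma-trend (limma 3.58.1, R 4.3.3) was fitted to log2(value + 1) of the 11872 genes averaging at least 10, two-sided, without covariates. It was tested on simulated data in which few genes changed, in equal numbers up and down. Here 60.6% of the genes were called, a setting which that test does not cover. The alternatives were other pseudocounts, filters, scalings and thresholds, a replicate block, edgeR 4.0.16 and DESeq2 1.42.0 on recovered fragments, each library left out, and gamma fragments counted once.

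Members with values in every library are those called without overlap and changed at least 2-fold, the 2 highest of each role, and the best-known genes. Of related lists, cell type markers aside, the 2 called genes with the largest change and a mean of at least 100 are named, and ZEB1, ZEB2, KRT8, KRT18, JAM2 and the markers named were chosen after their values were seen. The members and lists were chosen with earlier results of these data known. Intervals were not computed, and the floor of 3 fragments covers counting error only. Results for 2 tested members are counted but not reported by name here.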

Additional observations from a re-analysis of the deposited data

How the results depend on the processing

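Of the 44 called members 40 kept direction and call under those alternatives that tested them, counting gamma fragments once aside, and outside the gamma cluster 20 of 24 did, the exceptions being CLDN10, CLDN15, GJA3 and GJA9. The filter at 100 tested 52 of the 73 members and not CLDN14 or CLDN18, and 9 members rose there against 12. Falling desmosome genes, 2 as reported, numbered 3 where JUP passed. The falling connexins, 2 as reported, numbered 1 without a filter, with a filter at 100, with quantile normalization and at a threshold of 0.01, 4 with scaling to the library total, and 0 to 3 with a library left out. Falling cadherins, 2 as reported, numbered 4 without a filter, and rising claudins and tight junction genes, 4 as reported, numbered 1 with the filter at 100, where fewer genes were tested, and 2 at the threshold of 0.01. Over all genes 2435 rose with scaling to the library total, against 3721. With a library left out 11 to 12 members rose and 31 to 34 fell. With gamma fragments counted once, an alternative added after the data were seen, 15 members fell against 32, and 5 protocadherins against 22, since 20 rows became 1 shared row and the excess of each gene. The excess then had the opposite sign in PCDHGA10 (0.48), PCDHGA12 (1.25), PCDHGA2 (0.45), PCDHGA4 (0.12), PCDHGA6 (0.18), PCDHGA7 (0.00997), PCDHGA9 (0.47), PCDHGB3 (0.0153), PCDHGB6 (0.33), PCDHGB7 (0.62) and PCDHGC5 (0.58), of which PCDHGC5 alone was called. PCDHGA12 was itself the lowest gene of PBS replicate 1, so its excess there was 0 by construction. With PCDHGA3 as the base in every library its change was 0.08, and those of PCDHGA7 and PCDHGB3 were -0.000233 and -0.00902. None of these genes was called with that base, PCDHGC5 included, and the others listed stayed above 0. Same-numbered libraries did not deviate together (correlations -0.05 to 0.01), so the numbers were not taken as pairs. With a replicate block 12 members rose and 32 fell, over all genes 3715 and 3462, and no member's call changed. Members at a few fragments, such as CDH5 and the alpha group, are limited by depth. For the other shifts the cause was not tested.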
